A study of Bos taurus with 20 samples.

Results

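The comparison described here sets 5 glands treated with cefapirin plus prednisolone (CFPD) against 5 glands treated with cefapirin alone (CF), taken from the same 5 cows, 10 of the 20 arrays of the series. Its members were chosen by their labels alone, and each CFPD gland was paired with the CF gland of its cow. RNA from udder tissue of mid-lactation Holstein Friesian cows was hybridised to Bovine Genome GeneChips of Affymetrix, with 1 array per gland. The CF and CFPD glands had both been challenged with 100 CFU of E. coli, and both received 300 mg of cefapirin per infusion, so that the 20 mg of prednisolone in each CFPD infusion is what their labels differ in. The remaining glands of each cow were 1 challenged and untreated (CNT) and 1 neither challenged nor treated (NC), and they are used here only as levels of reference. The animals cow8609 and cow8620 were sampled at 24 h post challenge, after infusions at 4 and 12 h. The animals cow8452, cow8507 and cow8605 were sampled at 48 h, after 2 more infusions at 24 and 36 h. Time point and cow therefore go together, and no gland received prednisolone without cefapirin or without bacteria. All 4 glands of a cow belonged to 1 animal and shared its circulation. The labels place the tissue in the cisternal region, while the methods of the study describe parenchyma.

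Cefapirin is a cephalosporin that blocks cell wall synthesis of bacteria. Prednisolone is a synthetic glucocorticoid: it binds the glucocorticoid receptor, which moves to the nucleus, switches on genes such as FKBP5, DUSP1 and ZBTB16, and holds back transcription driven by NF-κB and AP-1, among it that of chemokines and cytokines. In the udder, E. coli mastitis is known for a burst of chemokines, acute phase proteins and antimicrobial proteins from epithelial cells and incoming neutrophils, with a fall in milk synthesis. The question of the comparison is what prednisolone adds to the antibiotic at the level of the tissue transcriptome.

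In cow8452 and cow8609 the labels of the treated glands may have been exchanged before deposit, which the deposited values alone do not settle. The doubt comes from setting the arrays beside the study's own comparisons, among them those of chemokine genes. Whether the exchange took place was not tested. Directions printed for the deposited labels may therefore be turned. In the study CCL2 and CXCL2 at 24 h were significantly below CNT glands only with CFPD. The study's qPCR values appeared lowest in CFPD glands for all genes tested. By the deposited labels, CCL2 and CXCL2 were higher in the CFPD than in the CF gland at 24 h, by means of 1.33 and 3.55. Means of chemokine genes under the exchange, printed below, are not independent of this doubt. The treated glands were the rear ones. As deposited, the CFPD gland was the right rear in 3 cows and the left rear in cow8452 and cow8609. When the labels of these 2 cows are exchanged, every CF gland is a left rear and every CFPD gland a right rear gland, and side and treatment then cannot be told apart. Values below follow the deposited labels, and the main results are also given with the exchange. The secretory cell character of the tissue was plain on all arrays: 16 of the 17 secretory epithelial markers on the array lay above the array's median in every CF and CFPD gland. The medians of the 20 arrays lay between 7.12 and 7.31 on the log2 scale. The log2 signal of the 3′ probe set of actin minus that of its 5′ probe set, a measure of RNA degradation, was lower in the CFPD than in the CF gland in 5 of 5 cows, with differences of -0.53 to -0.06. For GAPDH it was lower in 2 of 5 cows. The part of RNA quality in the results was not tested.

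No gene passed the test. Of 24016 probe sets other than controls, 12156 were above their array's median in 5 or more of the 10 arrays and were tested with limma with the cow as a block. A probe set was to be called at an adjusted p (Benjamini and Hochberg) under 0.05 and a mean log2 difference of at least 1 in size, which is 2-fold. The number called was 0, or 0%. The smallest adjusted p was 0.998, and this is also the adjusted p of every tested pooled difference named below. The mean over the 5 cows reached 1 in size for 0 probe sets. The standard error of a difference had a median of 0.10. Standard errors here and below are moderated by limma, which draws each probe set's variance toward a value common to all. They can thus be smaller or larger than those of the 5 differences alone. At an unadjusted p under 0.05, 287 probe sets (2.36%) were higher and 161 (1.32%) lower in CFPD glands, 448 together, where 5% of the probe sets tested would be 608. Under exchanged labels the number called was again 0, with a smallest adjusted p of 0.153. At an unadjusted p under 0.05, 477 (3.92%) were then higher and 314 (2.58%) lower, 791 together. This is the larger number of the 2 readings, and it is the one in which left and right coincide with treatment.

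**Figure D1:**
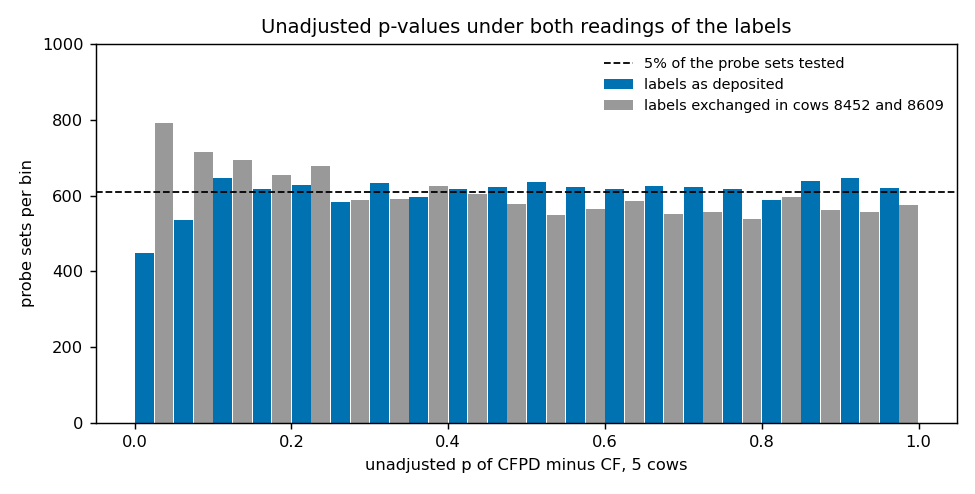
Number of probe sets (vertical axis) in bins of the unadjusted p-value of width 0.05 (horizontal axis), with a pair of bars for each bin, blue for the labels as deposited and grey for the labels exchanged in cow8452 and cow8609. The dashed line marks 608, or 5% of those tested. The first blue bar holds 448 probe sets and the first grey bar 791.

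The treated glands of a cow resembled each other more than those of different cows did. Distance, 1 minus the Pearson correlation of 2 arrays over the tested probe sets, was 0.0111 between the CF and CFPD glands of cow8452, 0.0129 in cow8605, 0.0142 in cow8609, 0.0114 in cow8620 and 0.0301 in cow8507. Only cow8507 reached the range of the 40 pairs of treated glands from different cows, 0.0296 to 0.0932 with a median of 0.0684. In cow8507 and cow8605 the treated glands lay farther from each other than either lay from the NC gland. The distances from NC were 0.0220 for CF and 0.0214 for CFPD in cow8507, and 0.0117 and 0.0072 in cow8605. The CNT gland was far from both in every cow, with distances of 0.0426 to 0.0856.

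The direction of the difference was not shared by the cows. Differences of at least 2-fold numbered 276 in cow8507, where 244 probe sets were higher and 32 lower in the CFPD gland. They numbered 88 in cow8609 (74 higher, 14 lower), 44 in cow8605 (9 higher, 35 lower), 35 in cow8620 (24 higher, 11 lower) and 22 in cow8452 (4 higher, 18 lower). Across the tested probe sets, which are not independent of each other, the differences of 2 cows correlated at between -0.19 (cow8507 and cow8605) and 0.24 (cow8452 and cow8609). Cow8507 thus had the most differences and correlated least with cow8605. The sign was the same in all 5 cows for 420 probe sets that were higher (3.46%) and 277 that were lower (2.28%) in CFPD glands. With the labels exchanged these counts were 531 higher and 453 lower, of 12156 tested.

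The genes below had the smallest p among those of the same sign in all 5 cows, and apart from CCL2 none had a mean difference above 0.50. SFPQ, an RNA-binding protein of splicing and of paraspeckles, had the smallest p. Its log2 level was 8.85, 8.86, 7.96, 8.54 and 8.64 in the CF glands of cow8452, cow8507, cow8605, cow8609 and cow8620, the order used for all lists of 5 values, and 9.41, 9.18, 8.41, 9.18 and 9.15 in their CFPD glands. The groups overlapped only through the low CFPD gland of cow8605, and each CFPD gland was above its CF partner by 0.32 to 0.63. The mean difference was 0.50 (standard error 0.08). Its 2 other probe sets were too dim to be tested and had mean differences of -0.10 and 0.05. COL6A1, a chain of collagen VI, had a mean difference of 0.34 (standard error 0.08) with a range of 0.23 to 0.49. Its other probe sets, also too dim, gave -0.10 and -0.03. FABP5, a carrier of fatty acids, had a mean difference of 0.49 (standard error 0.13) and a range of 0.09 to 0.96, and its second probe set gave 0.43, again above 0 in every cow. DLK1, an inhibitor of adipocyte differentiation, was at 0.37 (0.13 to 0.69). RASGEF1A, an exchange factor for Ras proteins, was at 0.40 (0.13 to 0.75). GUCY1B1, a subunit of the nitric oxide receptor guanylate cyclase, was at 0.31 (0.10 to 0.47), and WWP2, a ubiquitin ligase, at 0.28 (0.17 to 0.50).

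The genes with the smallest p among those lower in every cow had mean differences between -0.41 and -0.25. TSPAN13, a tetraspanin of cell membranes, was at -0.41 (standard error 0.11), with cow8605 at -0.03 and cow8609 at -0.77. ABHD3, a phospholipase, was at -0.36 (standard error 0.08), with log2 levels of 7.26, 7.20, 7.88, 7.54 and 7.37 in CF glands and 6.86, 6.74, 7.69, 7.04 and 7.11 in CFPD glands. Its groups overlapped, as cow8605 was high in both. CCPG1, a receptor for autophagy of the endoplasmic reticulum, was at -0.29, within a range of -0.46 to -0.16. SYT4, a synaptotagmin of vesicle traffic, was at -0.27, and its second probe set at -0.29 with every cow below 0. DMGDH, a mitochondrial enzyme of choline breakdown, was at -0.31, RNASEH2B, a subunit of ribonuclease H2, at -0.25, and IGFALS, a carrier of insulin-like growth factors in blood, at -0.28. CA8, a carbonic anhydrase-related protein, was at -0.32, but in cow8507 its difference was -0.002. Second probe sets of CA8 and CCPG1 were below 0 in every cow as well, with means of -0.14 and -0.15. Those of ABHD3 (-0.11), IGFALS (-0.05) and, among the higher genes, DLK1 (0.05) were too dim to be tested and had mixed signs. These 16 genes were picked for their agreement across cows, so that the agreement itself is a description. With the labels exchanged 2 of the 5 signs turn by construction, and CCL2, CA8, CCPG1, DMGDH, SYT4 and TSPAN13 then had means of the other sign, of which that of CCL2, -0.16, was the farthest from 0. The other means were then 0.02 to 0.37 for the higher genes, and the means of the lower genes were -0.19 to 0.08.

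**Figure D2:**
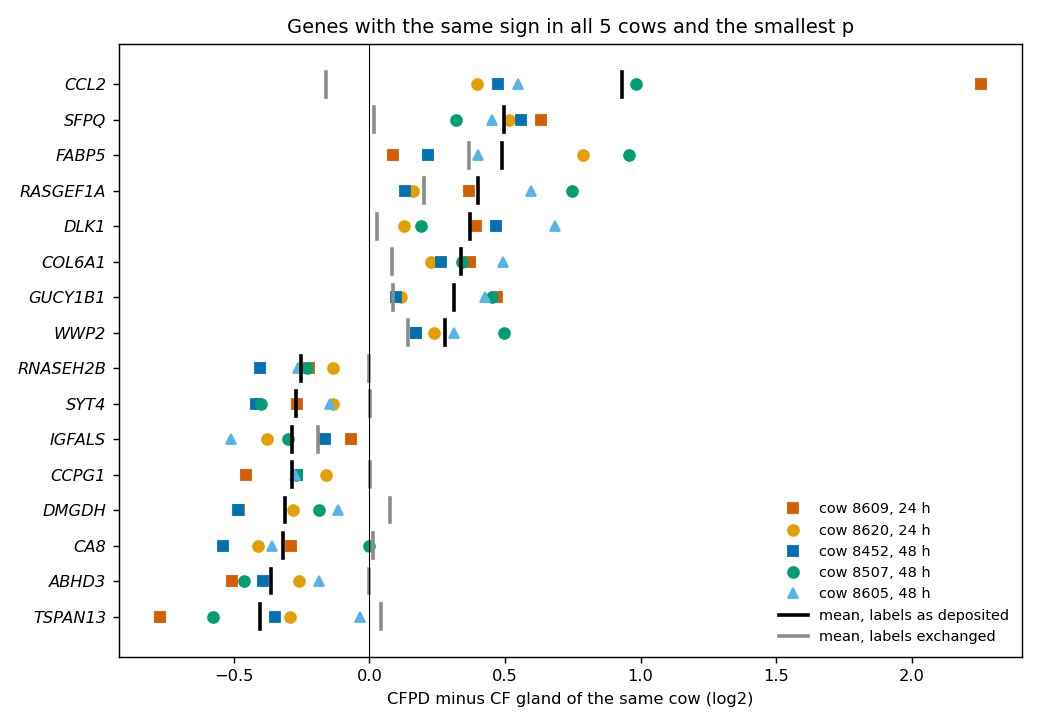
Log2 difference between the CFPD and the CF gland of the same cow (horizontal axis) for the 8 genes per direction with the smallest p among those of 1 sign in all 5 cows, 1 symbol per cow. Black bars are means with the labels as deposited and grey bars means with the labels of cow8452 and cow8609, drawn as squares, exchanged. All points but 1 stay within 1 log2 unit of 0, the exception being CCL2 in cow8609 at 2.26.

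CCL2, the chemokine that draws monocytes, had the largest mean difference of these 16 genes. Its log2 level was 9.67, 8.00, 7.77, 8.70 and 8.60 in CF glands and 10.14, 8.98, 8.31, 10.96 and 8.99 in CFPD glands, against 10.54 to 11.95 in CNT and 8.10 to 10.41 in NC glands. The CFPD gland was higher in each cow, by 0.47, 0.98, 0.55, 2.26 and 0.40, although the groups overlapped. The mean difference was 0.93 (standard error 0.24). The second probe set of CCL2 gave 0.83 and was also above 0 in each cow. With the labels exchanged the mean difference was -0.16 and the CFPD gland was higher in 3 of 5 cows.

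CXCL8 and CXCL2 differed most in cow8609. CXCL8, the main attractant of neutrophils, was at 7.39, 5.38, 7.87, 7.03 and 7.36 in CF glands and at 7.67, 6.18, 6.32, 12.21 and 7.17 in CFPD glands. The CFPD gland of cow8609 stood above all CNT glands (8.67 to 12.01), while the other 9 treated glands lay within 5.38 to 7.87. The mean difference was 0.91 (standard error 0.77, SD of the 5 differences 2.54), and -0.16 without cow8609. CXCL2, another ligand of the same receptor, was at 5.36 in the CF and 11.16 in the CFPD gland of cow8609 and at 7.26 and 5.01 in cow8605. It was too dim to be tested, and its 5 differences were -0.35, 0.56, -2.25, 5.81 and 1.29. After the exchange the means were -1.28 for CXCL8 and -1.17 for CXCL2. CCL20, a chemokine for lymphocytes and dendritic cells, ZC3H12A, a nuclease that degrades inflammatory mRNA, and RND1, a small GTP-binding protein, had the next largest differences of this pair among tested genes, at 3.10, 2.73 and 3.42. They were named from their values, as were all extremes of a single pair below, and a single pair allows no test. NFKBIA, the inhibitor of NF-κB that both NF-κB and glucocorticoids induce, differed by 0.34, 0.53, -0.26, 2.39 and -0.33. ICAM1, an adhesion molecule for leukocytes, differed by 0.17, 1.31, -0.12, 2.67 and 0.07. CCL3 had a mean difference of 0.08 on its brightest probe set, and its other probe sets, too dim to be tested, gave 0.31 and -0.12.

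Acute phase genes differed in opposite directions in different cows. HP, haptoglobin, was at 11.49, 8.88, 9.67, 9.19 and 6.01 in CF glands and at 11.46, 10.95, 6.90, 9.93 and 7.66 in CFPD glands, against 13.43 to 14.13 in CNT glands. It was higher in the CFPD gland by 2.07 in cow8507 and by 1.65 in cow8620, while the difference was -2.77 in cow8605. The mean difference was 0.33 (standard error 0.58). LBP, which presents lipopolysaccharide to CD14, was at 12.49, 10.82, 11.93, 12.51 and 12.64 in CF glands and at 12.86, 11.62, 9.997, 12.81 and 12.88 in CFPD glands. It was higher in the CFPD gland in 4 of 5 cows, by 0.25 to 0.79, while the difference was -1.93 in cow8605. The mean difference was -0.04 (standard error 0.33), and 0.43 without cow8605. SAA3, a serum amyloid A protein made in the udder, and SDS, serine dehydratase, were also among the genes farthest below 0 in cow8605, with differences of -2.15 and -1.67. S100A9, a calcium-binding protein of neutrophils, was higher in the CFPD gland in 5 of 5 cows on its brightest probe set, by 0.11 to 0.57 with a mean of 0.25 (standard error 0.09). A second probe set, too dim to be tested, gave 0.27, 3.90, -0.16, 0.21 and 0.94. The probe set that the study's tables call IL12A, and that the annotation assigns to CP (ceruloplasmin, a copper carrier of the acute phase), was also too dim to be tested. It was at 4.40 in the CF and 9.31 in the CFPD gland of cow8507, and its 4 other differences lay between -0.14 and 0.62. Both other probe sets of CP differed by 2.50 and 2.51 in cow8507. Under exchanged labels the mean differences were 0.05 for HP, -0.31 for LBP and 0.13 for S100A9.

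**Figure D3:**
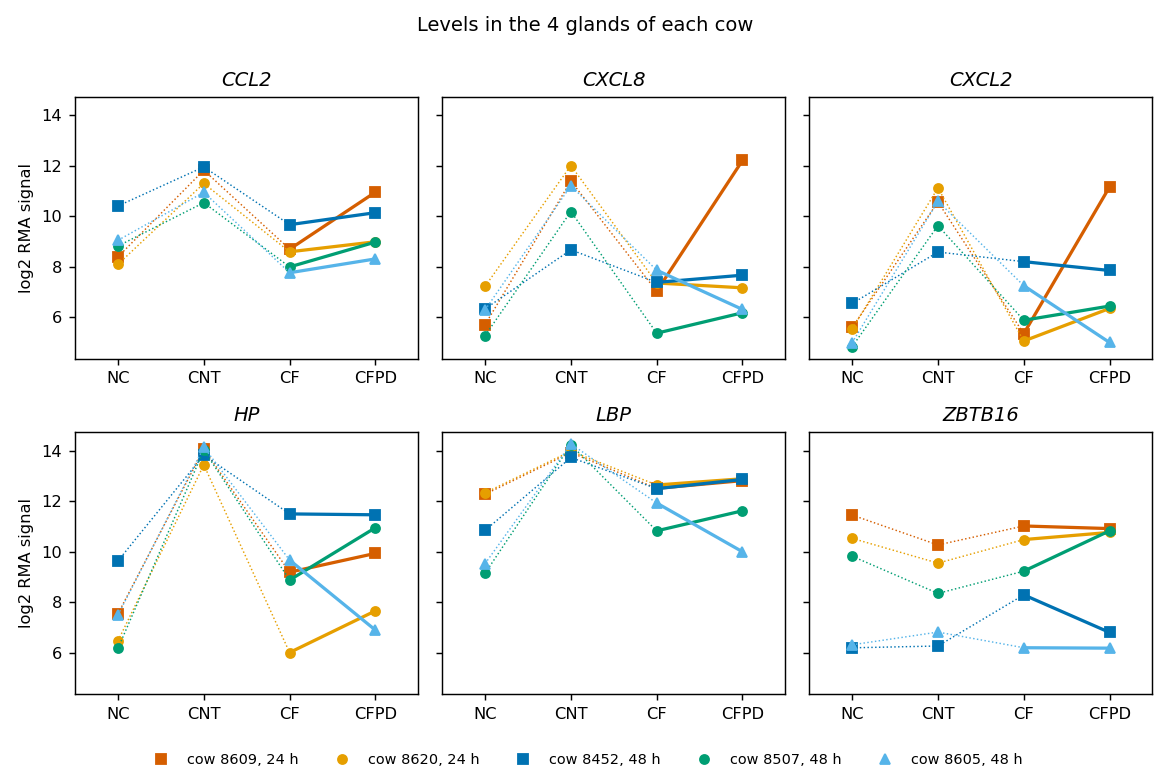
Log2 RMA signal (vertical axis, shared) of 6 genes in the NC, CNT, CF and CFPD glands (horizontal axis) of each cow, with 1 symbol per cow. Thick lines join the CF and CFPD glands that are compared. CXCL8 and CXCL2 lie between 5.01 and 8.21 in 9 of the 10 treated glands and reach 12.21 and 11.16 in the CFPD gland of cow8609, while HP differs between partners by 2.07 in cow8507 and by -2.77 in cow8605.

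No known target of glucocorticoids passed the test. Of a list of 50 such genes, 33 were on the array and 29 were bright enough to be tested. At an unadjusted p under 0.05, 2 were higher (beside 2.36% of all probe sets tested) and 0 lower. These were CDKN1C, an inhibitor of the cell cycle, at 0.23, and MERTK, a receptor with which macrophages take up dead cells, at 0.20. The other probe sets of CDKN1C, too dim to be tested, disagreed with this one, at -0.27 with every cow below 0 and at -0.02. The median of the 29 differences was 0.12 beside 0.01 for all probe sets tested. Means were above 0 for 26 of the 29, beside 55.3% of all probe sets. For the whole 33, 28 means were above 0 and the median was 0.08. The list's median was 0.54 in cow8507, where that of all probe sets tested was 0.08, and -0.05, -0.02, 0.13 and 0.01 in cow8452, cow8605, cow8609 and cow8620. Without cow8507 the median was 0.03 and 16 of the 29 means were above 0, beside 5646 of all 12156 probe sets tested. Without cow8452 the list's median was 0.23. With the labels exchanged 3 members were higher at an unadjusted p under 0.05 (beside 3.92% of all probe sets), ZBTB16, GLUL (glutamine synthetase) and KLF15 (a metabolic transcription factor), and the median was 0.08.

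ZBTB16, a transcription factor that is among the most strongly induced glucocorticoid targets in human cells, was at 8.29, 9.23, 6.20, 11.02 and 10.48 in CF glands and at 6.81, 10.83, 6.18, 10.91 and 10.76 in CFPD glands. It was 1.60 higher in the CFPD gland of cow8507 and differed by -1.49 in that of cow8452, where the CF gland also exceeded the NC gland (6.20). The other 3 pairs differed by -0.10 to 0.28, and the mean was 0.06 (standard error 0.34). After the exchange the mean was 0.69 (standard error 0.24, adjusted p = 0.714) with 4 of 5 cows above 0. An exact two-sided permutation test over the pairs gave p = 0.125, where 5 pairs allow no p below 0.0625. DUSP1, a phosphatase that switches off MAP kinases, differed by -0.21, 0.63, -0.01, 0.17 and 0.19. SGK1, a kinase of ion transport, differed by -0.24, 1.20, 0.13, 0.54 and -0.27. FKBP5, a chaperone that restrains the receptor, was too dim to be tested and differed by -0.33, 0.56, 0.29, -0.18 and -0.12. MT2A, a metallothionein that both metals and glucocorticoids induce, was 3.44 higher in the CFPD gland of cow8507 and between -0.67 and 0.32 in the other cows, and MT1A was 2.98 higher in cow8507. Both belong to the challenge-raised probe sets described below, and MT2A was at 13.20 in the CNT, 13.38 in the CFPD and 9.94 in the CF gland of that cow. TSC22D3, PER1 and KLF9 are not named in the annotation of the array and were not analysed here. Of the genes that carry the hormone's signal, NR3C1, the receptor itself, had a mean difference of -0.29 (standard error 0.16), with -1.01 in cow8507 and 0.29 in cow8605. HSD11B1, which regenerates active steroid, was too dim to be tested and was higher in 4 of 5 cows, by 0.33 to 1.43, with a difference of -0.32 in cow8609. Of 11 tested genes of receptor function and steroid handling, 0 passed an unadjusted p under 0.05. With the labels exchanged 1 was higher, CREBBP at 0.21, beside 3.92% of all probe sets.

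How far the antibiotic-treated glands still showed the response to challenge differed by cow. Among the probe sets tested, 94 with 65 symbols were at least 2-fold higher in the CNT than in the NC gland of every cow. Only NC and CNT arrays entered this 2-fold rule, but the filter for testing used the CF and CFPD arrays. Raised probe sets that were dim in treated glands were thus left out, such as that of CXCL2 (mean 5.51 in NC and 10.10 in CNT glands). In cow8507, 46 of the 94 remained at least 2-fold above the NC gland in the CFPD and 6 in the CF gland, 89 were higher in the CFPD gland, and the median difference was 1.0. In cow8605 the order was the other way, with 1 in the CFPD and 13 in the CF gland, 17 higher in the CFPD gland and a median of -0.30. Cow8609 had 19 against 2, with 70 higher and a median of 0.18. Cow8452 had 19 against 20, with 62 higher and a median of 0.08, and cow8620 had 3 against 2, with 50 higher and a median of 0.04. Over the 5 cows the median of the means was 0.22, and 80 means (85.1%) were above 0, beside 55.3% of all probe sets. Without cow8507 the median was 0.01 and 49 of the 94 means were above 0, beside 5646 of all 12156 probe sets tested. Without cow8605 the median was 0.34, and with the labels exchanged it was 0.04.

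At an unadjusted p under 0.05, 10 of these 94 were higher and 1 lower (beside 2.36% and 1.32%), and with the labels exchanged 1 and 1 (beside 3.92% and 2.58%). The higher ones with a symbol were CCL2 on 2 probe sets, CD53, a tetraspanin of leukocytes, at 0.48, ICAM1 at 0.82, LTF, lactoferrin, at 0.51, and S100A9, and 4 had none. The brighter probe set of LTF, which is not among the 94, was at 0.009. VNN2, a marker of neutrophils, was the lower one at -0.52, with differences of 0.001, -0.92, -1.06, -0.44 and -0.17. Of the raised genes, the next 4 were chosen after their values were seen. CHI3L1, a chitinase-like protein, differed by 3.90 in cow8507 and by -1.15 in cow8605. C4BPA, an inhibitor of complement, differed by 3.40 and -1.24 in these cows, and CFB, factor B of complement, by 2.26 and -0.97. S100A12, a calcium-binding protein of neutrophils, differed by 2.20 and -0.79. All 4 were thus higher in the CFPD gland of the first cow and in the CF gland of the second.

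**Figure D4:**
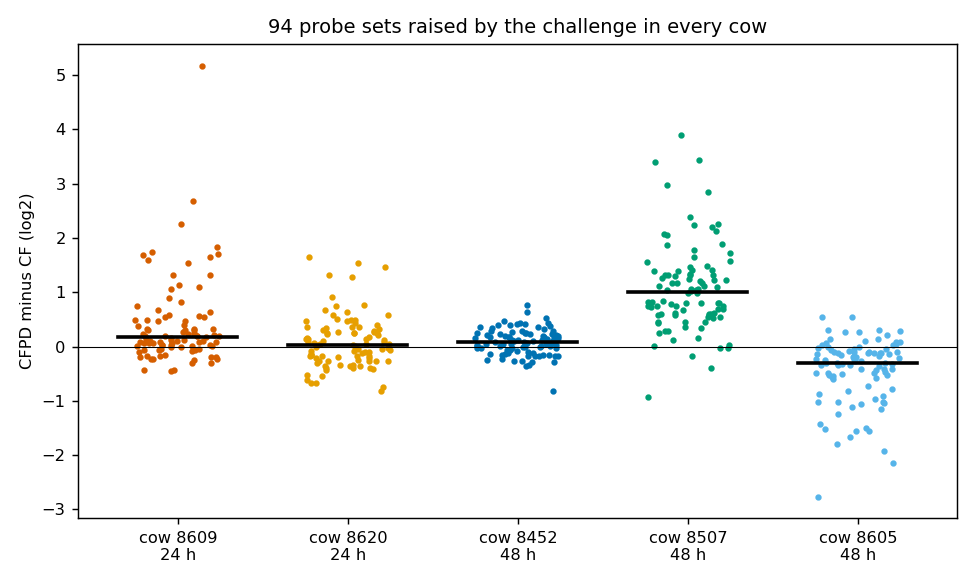
Log2 difference between the CFPD and the CF gland (vertical axis) for the 94 tested probe sets that were at least 2-fold higher in the CNT than in the NC gland of every cow, by cow (horizontal axis, with the time of sampling). Points are probe sets and bars their medians, which are 0.18, 0.04, 0.08, 1.0 and -0.30 from left to right.

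Across 22 pathway lists and 10 lists of cell type markers, no list held a called gene, and every list with at least 2 tested members had a median mean difference within 0.15 of 0. In 22 of these 31 lists the median farthest from 0 was that of cow8507. The counts that follow are at an unadjusted p under 0.05, which 2.36% of all probe sets tested passed as higher and 1.32% as lower. The lists were not tested as sets. Of 15 tested chemokine ligands, 2 were higher and 0 lower, CCL2 and CCL14, a chemokine for monocytes, at 0.19. Of 30 genes of Toll-like receptor and NF-κB signalling, 2 were higher, NFKB1, a subunit of NF-κB, at 0.33 and FOS, a subunit of AP-1, at 0.30. Of 11 acute phase genes, 1 was higher, PTX3, a pentraxin that binds microbes, at 0.47. Of 22 cytokines and their receptors, 0 passed in either direction by the deposited labels. Of 10 genes of cell division, MCM4, a helicase of DNA replication, was at 0.35 and PLK1, a mitotic kinase, at 0.18. Of 20 collagen and matrix genes, COL6A1 was higher and DCN, the proteoglycan decorin, lower at -0.33. Of 14 interferon-stimulated genes, IFI44L was lower at -0.21, with all 5 cows between -0.29 and -0.13. PLAT, a plasminogen activator, was at 0.45, of which cow8507 held 1.53, and CALR, a chaperone of the endoplasmic reticulum, was at -0.35 with cow8452 at 0.08. They were the only members at an unadjusted p under 0.05 of the lists of matrix proteases and of heat shock and unfolded protein genes, as S100A9 was for antimicrobial proteins and ICAM1 for leukocyte adhesion. Chemokine receptors, eicosanoid enzymes, complement, antigen presentation, antioxidant enzymes and apoptosis held 0 such genes as deposited. Under exchanged labels, 3.92% of all probe sets were higher and 2.58% lower. Toll-like receptor and NF-κB genes then held 4 higher and 1 lower. Cytokines and receptors held 1 higher, CD40 at 0.30, and 2 lower, CSF3 at -0.49 and OSMR at -0.265. Eicosanoid enzymes, antigen presentation and collagen and matrix genes each held 1 higher. Heat shock genes held 2 lower, and chemokine ligands, acute phase genes, antimicrobial proteins and leukocyte adhesion 1 lower each.

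Milk genes were at high levels in both glands. CSN2, β-casein, was at 15.40 to 15.52 in CF and 15.45 to 15.53 in CFPD glands, and LALBA, the subunit of lactose synthase, at 15.22 to 15.35 and 15.23 to 15.36. The mean difference was 0.01 for CSN2 and -0.01 for LALBA, each with a standard error of 0.07. The highest log2 signal of any probe set on the CF and CFPD arrays was 15.52 to 15.585. Both genes thus lay near the top of the scale, where a difference between the glands could be understated, which was not tested. In CNT glands CSN2 was at 15.10 to 15.46 and LALBA at 14.84 to 15.20. Of 19 tested genes of milk protein and lactose synthesis, 0 passed an unadjusted p under 0.05. Of 32 genes of milk fat synthesis, ACLY, which makes acetyl-CoA for fatty acids, was at 0.24 and above 0 in 5 of 5 cows, and SLC27A6, a fatty acid transporter, at -0.47. Of 14 genes of cholesterol synthesis, TM7SF2, a sterol reductase, was lower at -0.21. Under exchanged labels, where 3.92% of all probe sets were higher and 2.58% lower, 1 gene of milk fat synthesis was higher, LPIN1, a phosphatase of triglyceride synthesis, at 0.26, and 3 were lower, ACACA, the first enzyme of fatty acid synthesis, at -0.32, BDH1, a ketone body enzyme, at -0.30, and SREBF2, a transcription factor of sterol synthesis, at -0.20. Of the milk protein and lactose genes 2 were then lower, SLC2A1, a glucose transporter, at -0.23 and MFGE8, a protein of the milk fat globule, at -0.27, and of the cholesterol genes 1, LSS, at -0.20.

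Markers of cells that enter or line the tissue were read in the same way, though in bulk tissue fewer cells of a type and less RNA per cell cannot be told apart. The mean log2 level of the 16 neutrophil markers was 6.73 to 7.12 in CF and 6.74 to 7.09 in CFPD glands, against 8.14 to 9.47 in CNT glands, and 4 to 6 of the 16 exceeded the array's median in either. Only 6 could be tested, and S100A9 and VNN2 went opposite ways. For the 14 markers of monocytes and macrophages the mean level was 8.06 to 8.89 in CF and 8.15 to 8.99 in CFPD glands. Their median difference was 0.84 in cow8507, -0.16 in cow8605 and 0.08 to 0.20 in the others. The part of such cells in the result was not tested. Of 11 T and NK cell markers, LCK, a kinase of the T cell receptor, was higher at 0.22, with cow8609 at -0.03. Other probe sets of LCK, too dim to be tested, gave 0.125 and -0.127 with mixed signs across cows. The markers of endothelium, adipocytes, red cells, plasma cells, secretory epithelium and myoepithelium, like those of monocytes and macrophages, held 0 genes at an unadjusted p under 0.05, and those of fibroblasts held 1, DCN. Only 4 adipocyte, 2 plasma cell and 1 red cell markers were tested, so 0 says little there. With the labels exchanged, 3 of 16 secretory (KRT19, CDH1 and CLDN4), 2 of 9 myoepithelial (KRT5 and CAV1) and 1 of 7 endothelial markers were higher. Macrophage markers then held 1 higher and 2 lower of 11, and adipocyte markers 1 lower of 4. The shares of all probe sets were then 3.92% higher and 2.58% lower.

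**Figure D5:**
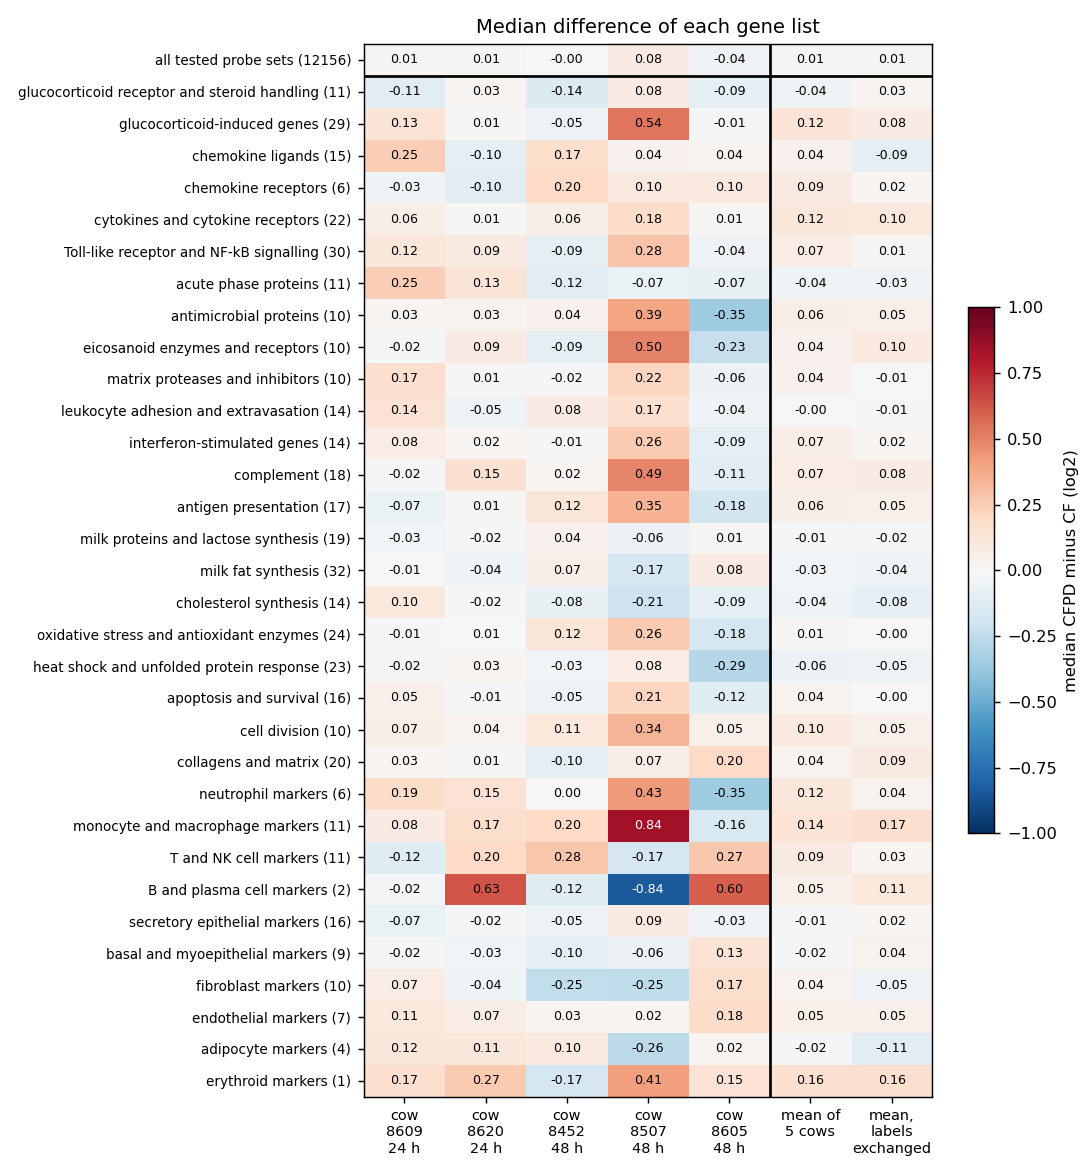
Median log2 difference between CFPD and CF glands over the tested members of each gene list (rows, number of members in brackets), in each cow (first 5 columns), for the mean of the 5 cows and for the mean with the labels exchanged. Red marks lists that were higher and blue lists that were lower in the CFPD gland. The column of cow8507 is the most strongly coloured, with 0.84 for monocyte and macrophage markers and 0.54 for glucocorticoid-induced genes, and the column of means stays pale throughout.

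When the labels of cow8452 and cow8609 were exchanged, other genes came to the top. CPXM2, a carboxypeptidase-like protein of the matrix, had log2 levels of 9.59, 7.05, 6.17, 8.70 and 7.62 in glands labelled CF and 8.84, 7.56, 6.65, 7.80 and 8.31 in glands labelled CFPD. By the deposited labels the differences were -0.75, 0.51, 0.49, -0.90 and 0.69. With the exchange the mean was 0.67 (standard error 0.09, adjusted p = 0.190), higher in 5 of 5 cows. KRT15, a keratin of basal epithelial cells, had a mean of 0.69 (standard error 0.12, adjusted p = 0.481), PLAGL1, a zinc finger transcription factor, of 0.61 and SHISAL2B of 1.66 (standard error 0.31). A second probe set of KRT15, too dim to be tested, went another way, as it was above 0 in every cow by the deposited labels, with a mean of 0.55. SHISAL2B was 4.52 to 8.75 in CNT against 9.35 to 12.83 in NC glands, and was 6.93 in the CF and 9.95 in the CFPD gland of cow8605. Lower in every cow with the exchange were SLC7A5, a transporter of large neutral amino acids, at -0.77, CCL26, a chemokine for eosinophils, at -0.60, MFSD2A, a lipid transporter, at -0.43, and RNF123, a ubiquitin ligase, at -0.43. The second tested probe set of RNF123 did not share its signs, with deposited differences of 0.17, -0.14, 0.16, -0.35 and 0.29. None of the 8 was called under either reading, and under the exchange each of these is at the same time a difference between right and left rear glands.

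By time point, the comparison rests on 2 cows at 24 h and 3 at 48 h, fitted in 1 model. At an unadjusted p under 0.05, 260 probe sets (2.14%) differed at 24 h, 190 higher and 70 lower, and 345 (2.84%) at 48 h, 181 higher and 164 lower. None was called at either time. The difference between the time points, which is also one between cows, was itself tested, and 232 probe sets (1.91%) passed an unadjusted p under 0.05 with 0 called. MAD2L1, a protein of the spindle checkpoint, showed the largest such difference among the genes named by this test, with 1.70, 1.31 and 0.28 in the 48 h cows against -0.29 and -1.76 in the 24 h cows (2.12, standard error 0.50, adjusted p = 0.9999). CD3E, a chain of the T cell receptor complex, had a difference of 0.65 between the times and STATH, statherin, of 0.67. ATF3, a transcription factor of the stress response, was at -0.24, -0.77 and -0.07 in the 48 h cows and at 1.66 and 0.72 in the 24 h cows (-1.55, standard error 0.32). CXCL3, a neutrophil chemokine, was at -1.16 and NEURL1, a ubiquitin ligase, at -0.84. Under exchanged labels 315 probe sets passed at 24 h, 129 higher and 186 lower, and 561 at 48 h, 372 higher and 189 lower, and none was called. The differences between the times were then 0.70 for MAD2L1, -0.25 for CXCL3 and -0.12 for NEURL1, and those of ATF3, CD3E and STATH had the other sign.

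The largest differences of single pairs were of different kinds. In cow8507 the CFPD gland was higher in genes of the response to challenge, CHI3L1, MT2A and C4BPA. It was also higher in CFI, a protease that inactivates complement (3.17), which is not among the 94 challenge-raised probe sets. CFI was at 6.18 in the NC and 9.43 in the CNT gland of that cow. The CFPD gland was lower in matrix and surface genes, GPC3, a glypican (-1.93), LUM, the proteoglycan lumican (-1.86), OGN, osteoglycin (-1.44) and MSR1, a scavenger receptor of macrophages (-1.45). In cow8605 it was lower in HP, SAA3, LBP and SDS and higher in SHISAL2B (3.02), GPC3 (1.51) and HPGD, which degrades prostaglandins (1.17). In cow8620 it was higher in SHISAL2B (2.29), HP and LYZ2, a lysozyme (1.54), and lower in MSR1 (-1.95) and MAD2L1. In cow8452 it was lower in ZBTB16, LCP1, an actin bundler of leukocytes (-1.47), F2RL2, a thrombin receptor (-1.45), and SCARA5, a ferritin receptor (-1.28), and higher in MAD2L1 and IGCGAMMA, an immunoglobulin chain (1.19). GPC3 went in opposite directions in cow8507 and cow8605, SHISAL2B in cow8605 and cow8609, and HP in cow8507 and cow8605.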

How the data were processed

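RNA of 20 glands of 5 cows was measured on 1 array each. The authors computed log2 signals with RMA in the Bioconductor package affy, and these deposited log2 values were used as they are. Versions, and whether all arrays were normalized together, are not given in the sources used here. Of 24128 probe sets, 112 controls were left out. The annotation gives 1 symbol to 13318, several to 86 and none to 10724.

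Differences were fitted with limma 3.58.1 in R 4.3.3, with the cow as a fixed block on the 10 CF and CFPD arrays, two-sided, and p-values were adjusted by Benjamini and Hochberg over 12156 probe sets. The residual degrees of freedom were 4 and the prior added 4.92. The study names limma and its thresholds without a term for the cow. The cow number pairs the glands, since they come from 1 animal, and the deviations of the arrays of a cow from their group means correlated at 0.33 to 0.80. The time points were fitted in 1 model with an effect each. Precision is limited by having 5 pairs of arrays. The filter can be passed through 1 group alone.

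Named were the 8 genes per direction with the smallest p and 1 sign in all cows, 4 per direction with the labels exchanged, 3 per direction for the difference of the times, up to 2 per list, of which the text gives those at an unadjusted p under 0.05, and fixed genes of glucocorticoid response, inflammation and milk. Where a gene has more than 1 probe set, the one with the highest mean stands for it, apart from CCL2, CXCL2, CXCL8, LBP and CP, given by the probe set of the study's tables. Members and lists were chosen with earlier results of these data known. Alternatives were other blocks, filters, priors, scalings and thresholds, 1 probe set per symbol, and leaving out each cow.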

Additional observations from a re-analysis of the deposited data

Results flagged for a closer look

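Of 64 named genes, 3 had 1 cow far from the other 4 in the difference between CFPD and CF glands, by Dixon's test at the 5% level, which chance alone passes in about 5% of groups. CP, the gene of the probe set that the study's tables call IL12A, was at 4.92 in cow8507 against -0.14 to 0.62 in the others. LBP was at -1.93 in cow8605 against 0.25 to 0.79. PLAT was at 1.53 in cow8507 against -0.03 to 0.40. Of 32 medians, those of 31 lists and of the challenge-raised probe sets, 3 passed as well, and cow8507 stood apart in each. Its median was 0.34 for cell division (0.04 to 0.11 in the others), 0.09 for secretory epithelial markers (-0.07 to -0.02) and -0.26 for adipocyte markers (0.02 to 0.12), the last over 4 tested genes.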

How the results depend on the processing

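The number of probe sets called was 0 under every alternative run, also at an adjusted p under 0.05 without the 2-fold limit, and the smallest adjusted p was 0.0521, with the labels exchanged and without cow8507. Counts at an unadjusted p under 0.05 were taken under each alternative after the data had been seen. The pooled count of 448 became 38 without the replicate block, 138 with all 20 arrays and the block, 1006 without a filter and 199 with 1 probe set per symbol, of fewer tested. It was 413 to 443 with a mean filter, another prior, centring or quantile normalization, 438 with the cow as a random block and 454 without cow8452 and cow8609. Leaving out 1 cow gave 337 (cow8609) to 554 (cow8507). The split of 287 higher and 161 lower became 226 and 187 with each array centred and 226 and 214 with quantile normalization. With the labels exchanged, 791 became 41 without the replicate block and 1263 without a filter, 459 when cow8452 alone and 283 when cow8609 alone was exchanged, and 507 (without cow8452) to 1061 (without cow8605) with 1 cow left out. At 24 h 260 became 468 in a separate fit and 32 without the block, and at 48 h 345 became 20 without the block and 561 with the labels exchanged. The block changed no call. The mean distance between CF and CFPD glands of 0.0159 became 0.00729 over all probe sets.

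Of 446 comparisons of 50 genes with an alternative, 420 kept the sign and 26 did not. With the labels exchanged the pooled difference had the other sign for 14 genes: CXCL8 (-1.28), CXCL2 (-1.17), NFKBIA (-0.56), ICAM1 (-0.32), CCL2 (-0.16), NFKB1 (-0.10), CCL3 (-0.093), CSN2 (-0.036), SLC27A6 (0.34), DMGDH (0.077), TSPAN13 (0.043), CA8 (0.012), CCPG1 (0.004) and SYT4 (0.002). The difference between the times did so for ATF3 (0.27), STATH (-0.16) and CD3E (-0.077), and was at most 0.70 in size for the other 3 genes. Among genes of 1 sign in 5 cows the exchange splits the signs by construction. For the rest, too, only the differences of cow8452 and cow8609 turn, so that the change of each mean follows from these 2 cows. Whether the labels were in fact exchanged was not tested. CSN2 was at -0.002 with each array centred and LALBA at 0.014 with quantile normalization. With 1 cow left out CXCL8 ranged from -0.16 (without cow8609) to 1.52, CXCL2 from -0.19 (without cow8609) to 1.83, FKBP5 from -0.086 (without cow8507) to 0.14, HP from -0.10 (without cow8507) to 1.11, LBP from -0.25 to 0.43 (without cow8605), ZBTB16 from -0.33 (without cow8507) to 0.44, and CSN2 from -0.006 to 0.019. Of 320 list medians under alternatives, 3 moved by at least 1 SD of the cows, chemokine ligands with the labels exchanged (-0.09), and chemokine receptors (-0.03) and endothelial markers (-0.04) in the 24 h cows alone. The number of pairs, bulk tissue and labels that may be exchanged limit every value.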

Other observations

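The reverse of the challenge-raised group was small. Of the probe sets tested, 18 were at least 2-fold lower in the CNT than in the NC gland of every cow. Their median difference between CFPD and CF glands was 0.06 over the 5 cows, and 0.23, -0.36, 0.30, -0.14 and 0.19 in cow8452, cow8507, cow8605, cow8609 and cow8620. In cow8507 and cow8605 this is the opposite sign to the medians of the raised probe sets, 1.0 and -0.30. At an unadjusted p under 0.05, 0 of the 18 were higher and 0 lower, and with the labels exchanged 4 were higher and 1 lower, beside 3.92% and 2.58% of all probe sets.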
